A study of Mus musculus with 31 samples.

Results

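The variation described here is that among 16 epididymal fat samples of male mice, 8 kept under normoxia (NO) and 8 under intermittent hypoxia (IH), out of 31 arrays of the series, the other 15 being of liver. Each fat pad was read on 1 Illumina MouseRef-8 bead array, and the values were centred within NO and within IH, so that the mean effect of IH was taken out and the differences between mice of the same exposure were left. The mice were C57BL/6JRj males of 16 weeks without any transgene or drug. IH lasted 14 days, for 8 h per day, in cycles of 60 s in which the FiO2 was 5% during 30 s and 21% during the other 30 s, and NO mice received air-air cycles. NO samples carry the replicate numbers 1 to 8 and IH samples 15 to 22. How the fat pads were dissected, and from which cage each mouse came, is not given in the sources used here.

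Epididymal fat is the visceral depot that lies along the epididymis, the long coiled duct in which sperm from the testis mature. The depot holds adipocytes, which store triglyceride, and around them blood vessels, fibroblasts, macrophages and an outer layer of mesothelium. The epididymis itself is lined by an epithelium that secretes defensins, lipocalins and protease inhibitors in a segment-specific manner, and the efferent ducts that join it to the testis carry motile cilia. An array of a tissue piece reads all cells in the piece at the same time, so fewer cells of a type and less RNA per cell cannot be told apart in any value below.

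The number of detected probes (detection p-value under 0.01) ran from 10261 to 11932 under NO, with a median of 11151, and from 10775 to 12340 under IH, with a median of 11679.5. Probes detected on 8 or more of the 16 arrays were used, the brightest one standing for its gene, which left 8207 genes. The arrays of the 2 groups lay on different bead chips. NO 1 to NO 3 shared 1 chip and NO 4 to NO 8 another. IH 15 to IH 19 lay together on a further chip and IH 20 to IH 22 on yet another. Exposure and chip therefore cannot be told apart between groups, whereas chip can be compared within each group. Of the 16 listed adipocyte markers with a probe, 16 were detected on every NO array and 14 to 16 on the IH arrays, with 14 on IH 19. Most of these markers of the labelled tissue were thus detected on every array.

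The spread of a gene is given as the SD of its log2 intensity within the groups (14 degrees of freedom). The median SD over the 8207 genes was 0.32. An SD of at least 0.5 was found for 1919 genes, which is 23.4% of those measured, and an SD of at least 1 for 310. The first count depended on the background correction and on IH 19, being 855 on the deposited signal and 1296 without IH 19. The 100 genes with the largest SD, called the variable genes below, ran from 4.11 down to 1.508 (H2-Aa), and the next gene below them had 1.504. Most of them were off on some arrays and high on others. Only 20 of the 100 were detected on all 16 arrays, and 32 were detected on 8 or 9.

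The arrays did not spread evenly. The first principal component of the centred values held 37.1% of the variance and the second 15.4%. IH 19 stood apart with a score of 68.7 on the first component, where the next highest array, IH 16, had 24.2 and the lowest, IH 17 and IH 18, had -42.1 and -37.3. The root mean square deviation of IH 19 from its group mean was 0.86, against 0.35 to 0.55 on the other 15 arrays. Some results that rest on IH 19 are therefore given with and without it.

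**Figure D1:**
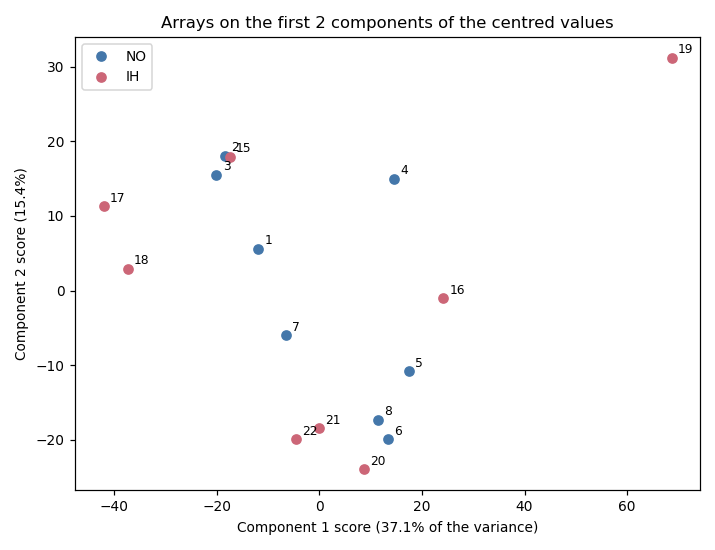
Scores of the 16 epididymal fat arrays on the first component (x axis, 37.1% of the centred variance) and the second (y axis, 15.4%), with blue points for NO, red points for IH and the replicate number beside each point. IH 19 lies far to the right at 68.7, and IH 17 and IH 18 lie at the left end.

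The 20 genes with the largest SD included genes of secreted proteins (Defb42, Wfdc15b, Cst11, Lcn2), of epithelial membranes and transport, of smooth muscle (Csrp1), of cilia (Dynlrb2) and of sperm (Prm1). Cuzd1, which encodes a membrane protein of secretory epithelia such as the pancreatic acinus and the uterus, had the largest SD of all, 4.11. Its log2 intensity ran from 4.44 to 14.64 under NO (median 7.36) and from 4.38 to 14.60 under IH (median 11.56). It was highest on NO 4 and IH 19, between 9.86 and 13.24 on NO 5, NO 6, NO 8, IH 16 and IH 20 to IH 22, and at background on NO 1, NO 2, NO 3, NO 7, IH 15, IH 17 and IH 18. Defb42, a beta-defensin gene, ran from 4.28 to 9.75 under NO (median 4.72) and from 4.26 to 14.61 under IH (median 6.02). Wfdc15b, of the whey acidic protein family of protease inhibitors, ran from 4.31 to 13.68 under NO (median 5.82) and from 4.27 to 14.17 under IH (median 8.68). Both were highest on IH 19 within IH and on NO 4 within NO, and both were at background on IH 17 and IH 18. Prom2, which encodes a pentaspan protein of epithelial membrane protrusions, reached 12.25 on NO 4 and 13.58 on IH 19 and had medians of 6.30 under NO and 7.39 under IH. Akr1c19, an aldo-keto reductase gene, and Ptgds, the prostaglandin D synthase gene, reached 11.77 and 11.94 on NO 4 and 11.25 and 11.75 on IH 19, with NO medians of 5.23 and 5.79 and IH medians of 7.86 and 7.43. Slc38a5, a glutamine transporter gene, reached 14.64 on IH 19 and 12.24 on IH 16, and was between 4.82 and 9.71 on the other 14 arrays. These 3 genes were thus also highest on NO 4 within NO and on IH 19 within IH. Cst11, which encodes an epididymal cystatin, was flat under NO (5.16 to 5.81) and reached 14.52 on IH 16 and 13.95 on IH 19, with an IH median of 5.68.

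**Figure D2:**
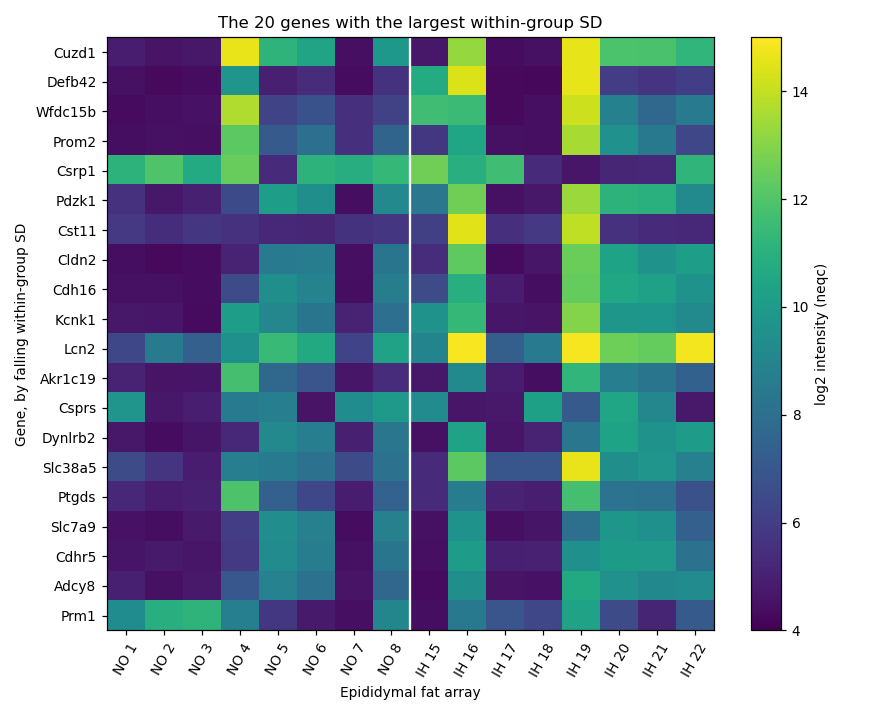
Log2 intensity (colour, 4 to 15) of the 20 genes with the largest within-group SD, one row a gene in falling order of SD, on the 16 epididymal fat arrays, with NO left of the white line and IH right of it. Most rows are bright on NO 4, IH 16 and IH 19 or on NO 5, NO 6, NO 8 and IH 19 to IH 22, and dark on NO 1 to NO 3, NO 7, IH 17 and IH 18. Csrp1 and Csprs switch between low and high in another order.

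The 200 genes with the largest SD were grouped by the correlation of their centred values over the 16 arrays, and 161 of them fell into 5 modules of at least 5 genes. The 5 modules held 70, 68, 11, 7 and 5 genes. Of the 100 variable genes, 82 were in a module, 36 of them in the first and 37 in the second. High correlation inside a module follows from how it was built, so the mean correlations within them (0.73, 0.86, 0.74, 0.79 and 0.79, over 16 arrays) are a description. Over all 8207 genes the mean correlation was 0.01.

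Some promoter sequence is shown for some members of the second module and the third, since both held genes of a kind for which a DNA element is well known, cilium genes in the one and immediate early genes in the other. RFX factors, which drive cilium genes, bind an inverted repeat called the X-box. The serum response factor binds the CArG box, and factors of the CREB family bind TGACGTCA. Windows from 250 bases before to 50 after each gene's start (RefSeq, GRCm38.p6) were searched on both strands. Of 68 genes of the second module 51 had a window, and 4 of these (7.84%) held an X-box, against 1.75% of all 27025 genes. Of 11 genes of the third module 9 had a window. The CArG box was in that of 1 gene, Egr2, and in 1.81% of all genes, and TGACGTCA was in those of 2, Errfi1 and Has1, and in 2.03% of all genes. The stretches around 5 matches are printed 5′ to 3′ along the gene, with the match in capitals, from chr8:116504940-116505000 (plus strand, Dynlrb2), chr4:41507746-41507806 (minus strand, 1110017D15Rik), chr10:67537773-67537830 (plus strand, Egr2), chr4:150854995-150855050 (plus strand, Errfi1) and chr17:17855240-17855295 (minus strand, Has1). None of the 4 genes with an X-box (Dynlrb2, 1110017D15Rik, Fam166c and Greb1) was among the 4 leading genes of the module. A match is a match of letters only.
Dynlrb2, X-box: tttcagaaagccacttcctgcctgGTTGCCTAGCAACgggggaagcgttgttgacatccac
1110017D15Rik, X-box: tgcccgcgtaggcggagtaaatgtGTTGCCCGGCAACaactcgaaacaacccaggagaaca
Egr2, CArG box: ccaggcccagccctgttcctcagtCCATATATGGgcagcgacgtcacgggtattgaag
Errfi1, TGACGTCA: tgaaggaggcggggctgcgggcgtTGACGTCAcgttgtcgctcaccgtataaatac
Has1, TGACGTCA: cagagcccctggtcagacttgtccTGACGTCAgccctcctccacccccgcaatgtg

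The first module held 70 genes of many kinds, and no test was made of what they have in common. Its leading genes, those with the highest mean correlation to the other members, were Esrp1, an epithelial splicing regulator, Ldhd, a mitochondrial lactate dehydrogenase, Ap1m2, an epithelial sorting adaptor, and Pip5k1b, a phosphoinositide kinase. Esrp1 ran from 4.38 to 8.40 under NO (median 5.44) and from 4.37 to 12.10 under IH (median 8.03). Krt8 and Krt18, the keratin pair of simple epithelia, reached 12.68 and 11.43 under IH, both on IH 19. Their lowest IH values were 6.91 and 5.45, both on IH 17. The E-cadherin gene Cdh1, the claudin gene Cldn3, the transcription factor genes Elf3 and Trp63, and Adgrg2, a receptor of the efferent ducts and epididymis, were also members, as were genes with general roles such as Cad of pyrimidine synthesis and Nup210 of the nuclear pore. Cd52, known from lymphocytes and also secreted by the epididymal duct, was counted here with a B cell list. It was 14.80 on NO 4, 14.60 on IH 15 and 14.89 on IH 19, with medians of 9.11 under NO and 10.05 under IH.

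The mean log2 intensity of the 70 genes was 8.32 on NO 4 and between 5.48 and 7.09 on the other 7 NO arrays. Under IH it was 11.24 on IH 19, 9.51 on IH 16, between 7.34 and 7.82 on IH 15 and IH 20 to IH 22, and 5.81 and 5.75 on IH 17 and IH 18. All 70 genes were detected on IH 16 and IH 19, 34 on IH 18 and 25 on the NO array with the fewest, so the low means are in part those of probes near background.

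The second module held 68 genes, some of them known from motile cilia and some from transporting tubules, and no test was made of either kind. Its leading genes were Spag6l, a protein of the central pair of the cilium, Kndc1, a kinase-domain protein named from brain, the uncharacterized D630003M21Rik, and Ppp1r1b, the phosphatase inhibitor DARPP-32. Among the cilium genes were Dynlrb2 (a dynein light chain), Tekt1, Mns1, Rsph1, Drc3, Dnali1, Cfap65, Pifo and Mlf1. Among the transport genes were Slc7a9 (cystine and dibasic amino acids), Pdzk1 (a scaffold of the brush border), Cldn2 (a claudin of leaky tubules), Cdh16 (the cadherin of kidney tubules) and Scnn1a. Others were of neither kind, such as Mdk, a growth factor gene, Fbp1, of gluconeogenesis, and Apod, a lipocalin gene. Dynlrb2 ran from 4.37 to 9.16 under NO (median 5.12) and from 4.48 to 10.38 under IH (median 8.95). It was above 8 on NO 5, NO 6, NO 8, IH 16 and IH 19 to IH 22, and at 5.29 or less on the other 8 arrays, with no array between. Cldn2 ran from 4.29 to 8.65 under NO (median 4.76) and from 4.32 to 12.54 under IH (median 9.88), and Cdh16 from 4.38 to 9.50 (median 5.52) and from 4.42 to 12.40 (median 9.95). Lcn2, the iron-siderophore binding lipocalin of the acute phase that epithelia also secrete, ran from 6.21 to 11.42 under NO (median 9.04) and from 7.31 to 14.88 under IH (median 12.48). For each of these 4 genes, NO 5, NO 6 and NO 8 were above every other NO array, and IH 16 and IH 19 to IH 22 above every other IH array.

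Pdzk1 ran from 4.40 to 10.18 under NO (median 6.02) and from 4.51 to 13.35 under IH (median 10.12). Slc7a9 ran from 4.36 to 9.39 (median 5.41) and from 4.44 to 9.82 (median 7.71), and its 2 probes had a correlation of 0.98. Cdhr5, a cadherin of brush border microvilli, ran from 4.48 to 9.30 (median 5.34) and from 4.47 to 10.05 (median 8.84), and Adcy8, a calcium-stimulated adenylyl cyclase gene, from 4.51 to 8.86 (median 5.98) and from 4.33 to 10.68 (median 9.21). These 4 genes were at or near background on NO 1 to NO 3, NO 7, IH 17 and IH 18, and Pdzk1 was at 8.38 on IH 15, where Slc7a9 was at 4.49.

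The mean of the 68 genes was 8.12, 7.74 and 7.45 on NO 5, NO 6 and NO 8, 6.26 on NO 4, and between 5.16 and 5.29 on NO 1, NO 2, NO 3 and NO 7. Under IH it was between 8.42 and 9.35 on IH 16 and IH 19 to IH 22, and 5.74, 5.22 and 5.26 on IH 15, IH 17 and IH 18. The arrays thus fell into a high and a low set within each exposure, with NO 4 between. All 68 genes were detected on each array of the high set and 37 on NO 4. On NO 1, NO 2, NO 3 and NO 7 only 17 or 18 were detected, and on IH 15, IH 17 and IH 18 only 19 to 28. The low means are thus in part those of probes near background. The filter asks for detection on 8 arrays, and 22 of the 68 genes were detected on exactly 8. The first and second module were correlated (mean correlation between their genes 0.50 over the 16 arrays) but not equal. On NO 4 the centred mean of the first was 1.88 and that of the second -0.06, and on IH 19 these were 3.39 and 1.02. On IH 20 they were -0.03 and 1.64, and on IH 21 -0.24 and 1.23.

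**Figure D3:**
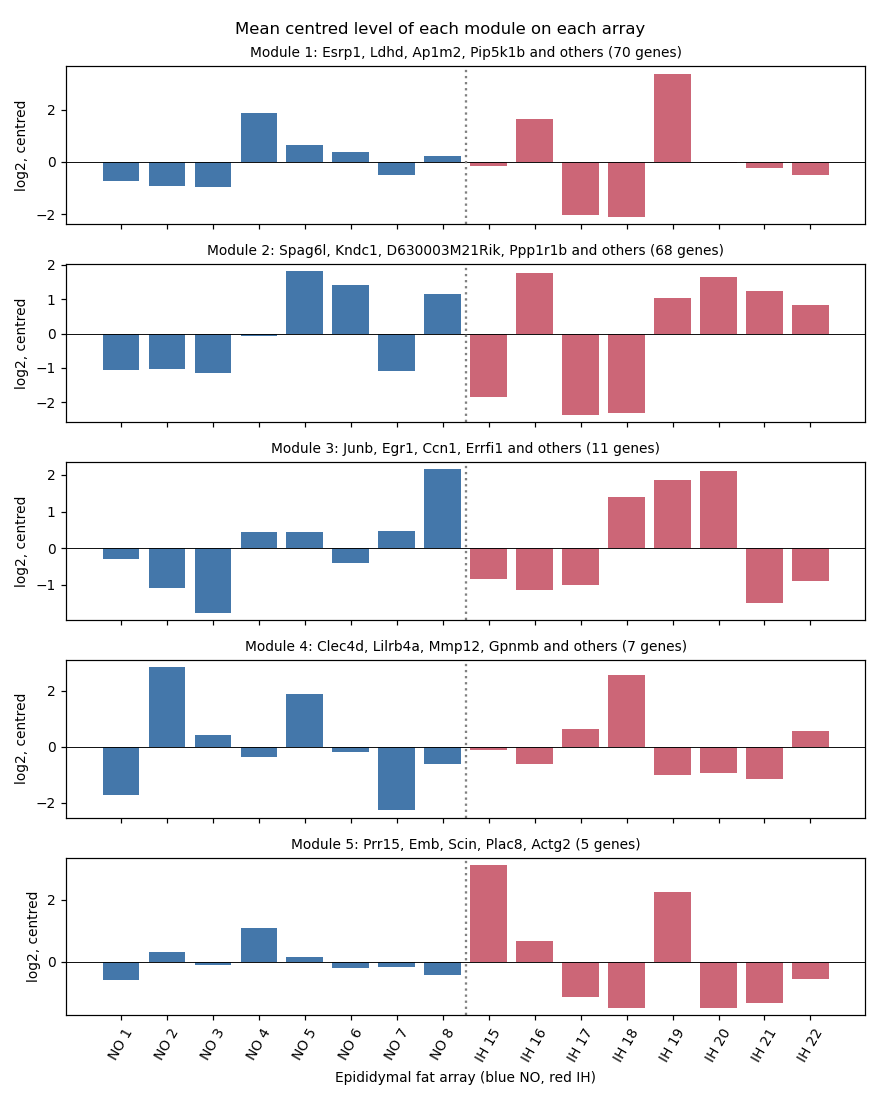
Mean log2 intensity of each module, centred within exposure (y axis, log2 units), on each of the 16 epididymal fat arrays (x axis, blue bars for NO, red bars for IH). The first module peaks on NO 4, IH 16 and IH 19, the second splits both groups into high and low arrays, the third is high on NO 8, IH 18, IH 19 and IH 20, the fourth on NO 2, NO 5 and IH 18, and the fifth on IH 15 and IH 19.

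The same grouping was also made on the NO arrays alone and read on the IH arrays, and the other way round. A set of 67 genes grouped on the IH arrays (58 of them in the second module) had a mean correlation of 0.85 there and 0.80 on the NO arrays. A set of 82 genes grouped on the NO arrays, with 52 genes of the second module and 16 of the first, had 0.78 there and 0.66 on the IH arrays. A set of 25 grouped on NO, with 20 genes of the first module, went from 0.90 to 0.74. A set of 93 grouped on IH, with 65 genes of the first module, went from 0.74 to 0.41. Several smaller sets kept less of their correlation. A set of 8 grouped on NO, with Prm1 and Tnp1 among them, went from 0.69 to -0.05 on IH. A set of 6 grouped on NO went from 0.74 to 0.18, and 2 sets of 5 from 0.66 to 0.16 and from 0.70 to -0.11. A set of 5 grouped on IH went from 0.67 to 0.26 on NO. Over all genes the mean correlation was 0.00325 on NO and 0.0192 on IH. Over the 200 genes from which the sets were drawn it was 0.31 on NO for those chosen on IH, and 0.08 on IH for those chosen on NO. The 0.41 of the 93-gene set is to be read beside 0.31. Each of these values rests on 8 arrays. The detection filter was set over all 16 arrays, so the arrays read had a part in which genes could be grouped. In the second module 22 of 68 genes were detected on exactly 8 arrays, the fewest that the filter allows. The reading is therefore not independent, and the part of the filter in these correlations was not tested.

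A second probe for the same gene gave another reading. Where a gene had more than 1 other kept probe, only the best-correlated one was counted, so a poorer probe is left out. Of 11 variable genes with another kept probe, 10 had a correlation over 0.8 with it. The median was 0.98, against 0.70 over the 1984 genes with several kept probes. In the second module 12 of 12 such genes had a correlation over 0.8, and the lowest was 0.93. In the first module 8 of 9 did, and the lowest was -0.41.

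Epididymis epithelium markers, taken from a list of such genes, were then counted on each array without any filter across arrays. Of 19 markers with a probe, 19 were detected on IH 19, 15 on IH 16 and 10 on NO 4. On the other 13 arrays between 2 and 6 were detected. Adam7, a sperm-maturation protein of the epididymal head, was at 14.95 on IH 19, 14.36 on IH 16 and 12.05 on NO 4 and between 4.32 and 5.42 on the other 13. Gpx5, the epididymal glutathione peroxidase, was at 14.43 on IH 19 and 14.77 on IH 16, and at most 4.71 elsewhere. Lcn8 and Lcn10, epididymal lipocalins, were at 14.86 and 14.30 on IH 19 and at 14.82 and 14.19 on IH 16. Spag11a, of the defensin-like sperm-binding proteins, was at 14.39 on IH 19 and 9.74 on NO 4, and at 4.58 on IH 16. Spint4, a Kunitz-type protease inhibitor, was at 14.38 on IH 19 and at most 5.29 elsewhere.

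The 3 arrays thus carried different sets of these markers. Gpx5, Lcn8, Lcn10 and Spag11b were high on IH 16 and IH 19 and at background on NO 4, whereas Rnase9, Spag11a and Defb2 were high on NO 4 and IH 19 and at or near background on IH 16. Only Cst11, Wfdc2, Clu and Npc2 of this list passed the filter, which asks for detection on 8 arrays. Of 16593 genes with a probe, 443 were detected on exactly 2 arrays. The pair was IH 16 and IH 19 for 126 of these and NO 4 and IH 19 for 48. A further 192 genes were detected on IH 19 alone, against 6 to 55 on each other array. Among the 30 genes with the largest SD when no filter was set, 24 did not pass the filter, among them the beta-defensin genes Defb48, Defb25 and Defb38. These genes and the list members were named after their values were seen.

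**Figure D4:**
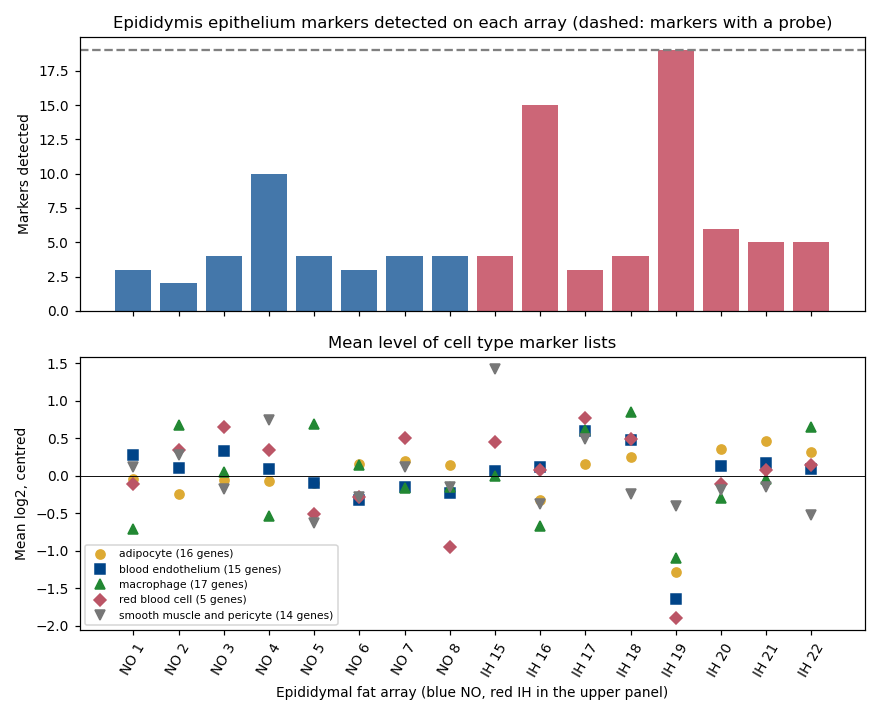
Upper panel, number of the 19 epididymis epithelium markers with a probe (dashed line) that were detected on each array, with bars reaching 19 on IH 19, 15 on IH 16 and 10 on NO 4. Lower panel, mean log2 intensity of 5 cell type marker lists, centred within exposure, on the same arrays; on IH 19 the adipocyte, blood endothelium, macrophage and red blood cell points lie at the bottom.

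On IH 19, where epididymis markers were most numerous, several marker lists of cells in the fat pad had their lowest value of the IH arrays, and others did not. The mean of the 16 adipocyte genes had a centred value of -1.29 there, with the other IH arrays between -0.32 and 0.46. The 15 blood endothelium genes were at -1.64 on IH 19 and between 0.07 and 0.59 on the other IH arrays. The 17 macrophage genes were at -1.09 and the 5 red blood cell genes at -1.90 on IH 19, and the 12 fibroblast and preadipocyte genes at -0.51, each the lowest of IH. In contrast, mesothelium genes were at 0.31 there and lymphatic endothelium genes at 0.11, and smooth muscle and pericyte genes were at -0.40, where IH 22 had -0.53. The mesothelium list includes Krt8 and Krt18 of the first module, both at their highest IH value on IH 19. Its mean was not computed without them, so the 0.31 cannot be read as a level of mesothelium alone. On IH 16, the array with 15 epididymis markers, adipocyte genes were at -0.32 and macrophage genes at -0.67, each the second lowest of IH, while blood endothelium genes were at 0.12. On NO 4 adipocyte genes were at -0.06 and blood endothelium genes at 0.09, both within the range of the other NO arrays, and macrophage genes at -0.54, the second lowest of NO. Without IH 19 the mean correlation among the adipocyte genes was 0.10, against 0.46 with it, and among the blood endothelium genes 0.34, against 0.69. The deposited intensities of all arrays share almost 1 distribution, so a level is relative to the other transcripts of the same array. What part the epididymis transcripts had in the lower values was not tested.

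Transcripts of maturing sperm cells were high on some of the arrays with many epididymis markers and on some without. Prm1, which encodes protamine 1 of the sperm nucleus, ran from 4.46 to 11.14 under NO (median 8.90) and from 4.42 to 10.33 under IH (median 6.69). It was highest on NO 3 and NO 2 within NO and on IH 19 and IH 16 (8.46) within IH, and it was not detected on NO 6, NO 7, IH 15 and IH 21. Tnp1, the transition protein gene, moved with it (correlation 0.94 over 16 arrays, 0.94 without IH 19). NO 2 and NO 3, which had the highest protamine levels, had 2 and 4 epididymis markers detected. Of the 11 testis markers with a probe 2 passed the filter, and between 0 and 6 were detected on an array, with 6 on NO 4 and on IH 19 and 5 on IH 16 and on NO 8. Of the 11 markers of the male accessory glands, such as the seminal vesicle secretory proteins, 0 passed the filter and 0 to 3 were detected on an array. Svs4, one of these proteins, was highest on NO 1 (8.25) and second highest on NO 7, and on NO 4, IH 16 and IH 19 it was between 4.25 and 4.42. Pate4, the member of this list with the most detected arrays (5), was instead highest on IH 19 (8.04) and second highest on IH 15 (7.42), with 6.23 on NO 4 and 4.39 on IH 16.

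The third module held 7 members of the immediate early list, genes that cells transcribe within minutes of a stimulus without new protein synthesis, and 4 others. Its genes were Junb, Egr1, Ccn1, Errfi1, Cxcl1, Fos, Atf3, Arc, Has1, Fosb and Egr2. Fos, a subunit of the AP-1 factor, ran from 6.33 to 11.94 under NO (median 9.86) and from 6.41 to 11.96 under IH (median 8.12). Egr1, a zinc finger factor, ran from 10.23 to 14.80 (median 13.22) and from 10.09 to 14.49 (median 11.14). Junb ran from 7.05 to 10.64 (median 8.54) and from 7.95 to 11.24 (median 8.47). The mean of the 11 genes was 10.35 on NO 8 and 10.38, 10.13 and 9.65 on IH 20, IH 19 and IH 18, and 6.45 on NO 3, the lowest. Of the 19 genes on the immediate early list, 14 were kept, and their median SD was 1.14, against 0.32 over all genes. Grouped on NO alone, a set with 7 of these genes had a mean correlation of 0.70 there and 0.26 on IH, and the set grouped on IH went from 0.75 to 0.40 on NO, again with 7 genes of the module. The 200 genes behind the second set had 0.31 on NO.

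The fourth module held 7 genes, Clec4d, Lilrb4a, Mmp12, Gpnmb, S100a9, S100a8 and Saa3. Gpnmb, a glycoprotein of lipid-laden macrophages, ran from 8.07 to 13.65 under NO (median 10.68) and from 8.85 to 13.11 under IH (median 10.32). Mmp12, the macrophage elastase, reached 11.55 on NO 2 and 9.25 on IH 18, with medians of 8.70 and 5.20. S100a9, of the calprotectin pair of neutrophils, ran from 4.91 to 10.66 under NO and from 4.68 to 10.06 under IH. The mean of the 7 genes was highest on NO 2 (10.92), NO 5 (9.96) and IH 18 (9.90). The 17 general macrophage genes kept, such as Lyz2 and C1qa, had a median SD of 0.68 and a mean correlation of 0.67. Their mean was also highest on NO 2 and NO 5 within NO (both 0.68 above the group mean) and on IH 18 within IH (0.84), and it was lowest on IH 19 (-1.09) and NO 1 (-0.72). Grouped on NO alone, a set of 25 genes with all 7 of these had 0.76 there and 0.36 on IH, against 0.08 on IH for the 200 genes it was drawn from. In the other direction, a set of 10 genes grouped on IH held 4 of the 7 and went from 0.65 to 0.39 on NO, against 0.31 for its own 200 genes.

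The fifth module was small, with Prr15, Emb, Scin, Plac8 and the smooth muscle gamma actin gene Actg2, and it rested on few arrays. Its mean was 11.52 on IH 15 and 10.67 on IH 19, 9.08 on IH 16 and between 6.57 and 8.26 on the other 13. The mean correlation among its 5 genes was 0.33 within NO and 0.88 within IH. Grouped on IH alone, all 5 fell into the set of 93 genes that held 65 of the 70-gene module. The mean correlation of the 5 genes with that module was 0.48 over the 16 arrays. Grouped on NO alone, Actg2 was in a set of 5 that held no other gene of this module. The 5 genes were thus not found as a separate set in either exposure. The actin-severing protein gene Scin ran from 4.73 to 9.91 under IH (median 5.20) and from 4.75 to 5.94 under NO. On IH 15 the 14 smooth muscle and pericyte genes kept, Actg2 among them, were also high, 1.42 above the IH mean, with the other IH arrays between -0.53 and 0.48. On IH 19 and IH 16, where the module was next highest, this list was at -0.40 and -0.38. These 14 genes had a mean correlation of 0.56, and within NO their mean was highest on NO 4 (0.74).

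Mesothelium shares the keratins of the first module, so its list was read gene by gene. The 13 genes had a median SD of 0.83 but a mean correlation of only 0.14. Krt8, Krt18 and Slpi were among the variable genes, whereas the genes that mark mesothelium more strictly varied less than these. Wt1, a transcription factor of mesothelium, had an SD of 0.58, Msln, its surface glycoprotein mesothelin, 0.74 and Upk3b, a uroplakin, 0.83. Each was above the median SD of 0.32 over all genes, and 10 of the 13 genes had an SD of at least 0.5. Wt1 ran from 8.35 to 9.94 under NO and from 7.24 to 9.14 under IH, and Upk3b from 8.74 to 10.69 and from 8.51 to 11.14.

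The other lists had a median SD above, near or under the 0.32 of all genes. The fat expansion markers of the Mest group, which rise and fall with the growth of fat pads, had a median SD of 0.67 over 11 genes, with centred means of 0.90 and 0.87 on NO 6 and NO 8 and -1.07 on IH 19. Mest itself, an imprinted gene of the hydrolase family, ran from 7.73 to 11.58 under NO and from 7.15 to 9.47 under IH. A set of 9 genes grouped on NO, with Mest, Sfrp5, Bmp3 and Npr3, had a mean correlation of 0.71 there and 0.33 on IH. The 16 genes of fatty acid synthesis had a median SD of 0.68 and ran from -0.82 on NO 2 to 0.83 on NO 5. Fasn, the fatty acid synthase gene, ran from 5.88 to 9.75 under NO and from 5.18 to 7.85 under IH, while Scd1, a desaturase gene near the top of the intensity scale, had an SD of 0.17. The 12 circadian clock genes had a median SD of 0.64 and a mean correlation of 0.12, and Dbp, a clock output factor, ran from 7.99 to 10.20 under NO and from 9.80 to 13.07 under IH. Of the 8 cell cycle genes kept, the centred mean was 0.98 on NO 5 and between -0.32 and 0.16 on the other 15 arrays. Their mean correlation of 0.48 rested on NO 5, being 0.11 without it and, within exposures, 0.63 under NO and 0.04 under IH. The 8 class II antigen presentation genes had a median SD of 0.65 and were at -1.68 on NO 2 and 1.30 on IH 22. The 61 cytosolic ribosomal protein genes had a median SD of 0.21 and the 79 respiratory chain genes 0.24, both under that of all genes. The 11 genes of the hypoxia inducible list had a median SD of 0.37, above that of all genes, and the centred mean stayed between -0.09 and 0.12 on every array. The 12 heat shock genes had 0.32, with a centred mean of 0.46 on NO 8. A list is given here by its median only, beside the median of all genes, and no test was made of it.

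Of the 100 variable genes 18 lay outside the modules, and several switched between low and high on single probes. Csrp1, which encodes a LIM protein of smooth muscle, was between 10.72 and 12.45 on 7 NO arrays and 5.35 on NO 5, and between 4.68 and 5.37 on IH 18 to IH 21 and between 10.92 and 12.60 on the other 4. Csprs, a component of the Sp100-rs repeat, was between 8.51 and 10.45 on 9 arrays, 7.13 on IH 19 and at or under 4.93 on 6. H2-Eb1, a class II beta chain gene, was at 4.74 on NO 2 and at 8.96 or more on the other NO arrays, and at 6.05 on IH 20 against 9.07 or more on the other IH arrays. H2-Aa, the class II alpha chain gene, had its lowest NO value on NO 2 as well (5.85) and its lowest IH value on IH 20 (4.98). None of Csrp1, Csprs, H2-Eb1 and H2-Aa had another kept probe, so a probe effect and a gene effect could not be compared. Acta1, the skeletal muscle actin gene, reached 12.73 on IH 15 and 11.48 on NO 2, and Cxcl13, the B cell chemokine of lymphoid tissue, 10.04 on NO 5 and 9.40 on NO 7.

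The chip of an array, the known batch within each exposure, was tested for every gene with a moderated F test in limma over both exposures. No gene was called at an adjusted p under 0.05 (percent called 0, lowest adjusted p = 0.229), whereas the unadjusted p was under 0.05 for 943 of 8207 (11.5%). Of the variable genes 29 of 100 did. In the second module 45 of 68 did, against 4 of 70 in the first, 0 of 11 in the third, 0 of 7 in the fourth and 2 of 5 in the fifth. Genes of a module were grouped for varying together and chosen for a large SD on these same arrays. Counts of module genes in this paragraph are therefore not counts of independent readings. The second module was on average 1.08 below the NO mean on the chip with NO 1 to NO 3 (mean centred value -1.08) and 0.65 above it on the chip with NO 4 to NO 8. It was at -0.74 on the chip with IH 15 to IH 19 and at 1.24 on that with IH 20 to IH 22. All 3 arrays of the first chip named were low and all 3 of the last were high. Within the other chips the centred mean ranged from -1.09 on NO 7 to 1.81 on NO 5, and from -2.36 on IH 17 to 1.77 on IH 16. With the values centred within chip the mean correlation of its genes was 0.83. With IH 16 and IH 19 both left out, which was decided after seeing the data, 192 of 7930 genes were called by chip (2.42%), and 23 of the 28 genes of the second module that then passed the filter were among them, as were 9 of 56 of the first. For the second module, chip and differences between mice on different chips cannot be told apart.

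Whether one exposure varied more than the other was asked next, with a Levene-type comparison of absolute deviations in limma. The SD was larger under IH than under NO for 5232 of 8207 genes (63.8%) and for 86 of the 100 variable genes, and the median SD was 0.29 under NO and 0.33 under IH. These values include IH 19, the array with the largest deviation from its group mean, and were not computed without it. The variable genes were chosen by SD on these same arrays, so 86 of 100 is not independent of that choice. At an adjusted p under 0.05 the spread was called wider under IH for 4 genes (0.0487%) and wider under NO for 1 (0.0122%). At an unadjusted p under 0.05 these were 553 (6.74%) and 271 (3.3%). None of the 100 variable genes was called, and 20 of them were wider under IH at the unadjusted threshold. Of these 5 genes, Hs3st3a1 was detected on 1 NO and 7 IH arrays and Prr18 on 3 and 6, so both passed the filter mainly through IH, and their NO spread is that of values near background. Their calls compare values near background under NO with measured values under IH. Hs3st3a1, a heparan sulfate sulfotransferase gene, had an SD of 0.24 under NO and 1.65 under IH (difference in mean absolute deviation 1.38, standard error 0.18, adjusted p = 0.00738). It was between 4.65 and 5.37 on the NO arrays and at 8.13, 8.64 and 9.15 on IH 15, IH 16 and IH 19, with 5.33 to 5.63 on the other 5 IH arrays. Esyt3, a membrane-tethering protein gene of the first module, had 0.24 and 1.77 (difference 1.41, standard error 0.24, adjusted p = 0.0361) and was high on the same 3 arrays. Bckdhb, of branched-chain amino acid breakdown, was low on IH 15, IH 16, IH 19 and IH 21 (5.79 to 7.46) and had 0.53 and 1.82 (difference 1.33, standard error 0.22, adjusted p = 0.0291), and Prr18 0.33 and 1.06 (difference 0.77, standard error 0.13, adjusted p = 0.0291). Wdr83os, of the endoplasmic reticulum membrane, had 0.55 under NO and 0.11 under IH (difference -0.43, standard error 0.07, adjusted p = 0.0291). With deviations taken from the group median or from the chip mean, 0 genes were called, and the adjusted p of Hs3st3a1 was 0.929 and 0.391. Leaving out 1 array left between 0 and 2 calls wider under IH for each array other than NO 4, NO 5 and IH 17. Without IH 19 the calls were 1 wider under IH and 0 wider under NO.

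**Figure D5:**
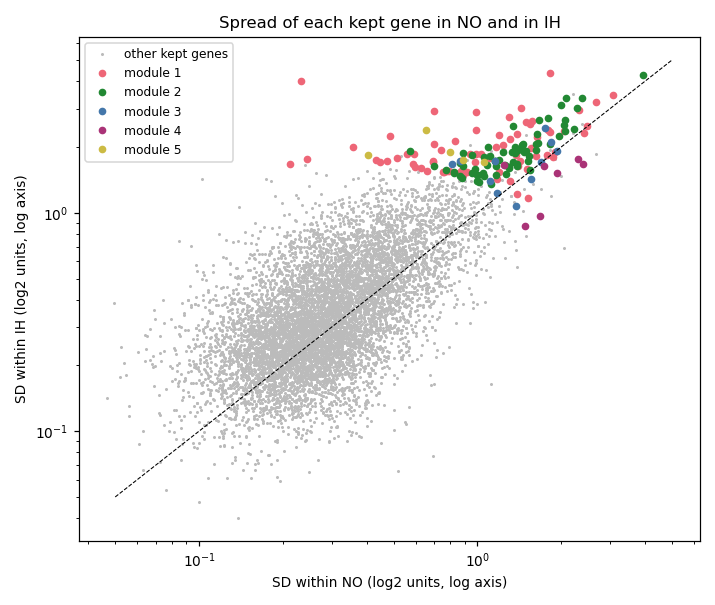
SD within NO (x axis) against SD within IH (y axis) for each of the 8207 kept genes, both in log2 units on log axes, with the genes of the 5 modules in colour and the dashed line at equal spread. Module genes lie at the upper right, most of them above the line, and 5232 of all genes lie above it.

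The contrast that the centring took out was fitted as well. NO and IH fat arrays shared no chip, so exposure and chip cannot be told apart in this contrast. IH and NO differed at an adjusted p under 0.05 for 1446 genes higher in IH (17.6%) and 1192 lower (14.5%), 32.1% in all. The genes with the smallest p were Kpna3, Vapa, Txn1, Sdhd and Emc7, all lower in IH. Sdhd, which encodes a membrane subunit of succinate dehydrogenase, was between 9.29 and 9.80 under NO and between 5.45 and 6.20 under IH, without overlap (log2 fold change -3.79, standard error 0.12, adjusted p = 4.73e-13). Vapa, of membrane contact sites, fell by 3.55 on the log2 scale and was detected on all 16 arrays. Kpna3, a nuclear import receptor gene, was between 8.61 and 9.08 under NO and was detected on 2 of the 8 IH arrays, so its size of change is not given. The sizes depended on the processing, and with the deposited signal on a log2 scale only the change was -2.42 for Sdhd and -2.49 for Vapa, both called. These 5 genes had within-group SDs between 0.16 and 0.23, and none of them had another kept probe. Of the 100 variable genes, by contrast, 0 were called higher in IH and 1 lower, H2-Aa (log2 fold change -2.31, standard error 0.69, adjusted p = 0.0169). A large SD enters the denominator of this test, so the low count follows in part from how the variable genes were chosen. Of the first module 9 of 70 genes were called higher in IH (median log2 fold change 1.39 over the 70), and of the second 2 of 68 (median 1.22).

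In the livers of the series, 42 of the 100 probes of the variable genes were detected on at least 7 of 15 arrays. Their median within-group SD was 0.84 in liver and 1.82 in fat, and that of all 8879 probes kept in liver was 0.30. These values are set side by side with no test, since the genes were chosen for their SD in fat.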

How the data were processed

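RNA of 16 epididymal fat samples was hybridized by the authors to Illumina MouseRef-8 v2.0 arrays from 250 ng of total RNA and extracted with GenomeStudio. The deposited intensity table is described by the authors as without additional normalization, yet its arrays share almost 1 distribution of values, as after quantile normalization. The authors also deposited a detection p-value per probe and array. From these, intensities were background-corrected, quantile normalized and put on a log2 scale with neqc of limma 3.58.1 (offset 16). Of 25697 probes 23978 had 1 gene symbol and 1719 none; 11486 probes and 8207 genes were kept. Values were centred within exposure. Modules came from average linkage on 1 - r of the 200 most variable genes, at a height of 0.5. Tests were two-sided in limma with Benjamini-Hochberg adjustment over all 8207 genes, and were tried on simulated data.

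The named genes were the 20 with the largest SD, the 4 leading genes of each module, up to 4 members of each list among the 100 variable genes, and the 5 with the smallest p of each test with calls; others named were chosen after their values were seen. The members and lists were chosen with earlier results of these data known. The labels call the samples separate; p-values measure the spread between these samples. The number of arrays limits the precision.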

Additional observations from a re-analysis of the deposited data

Results flagged for a closer look

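Among the 63 named genes, each group of 8 arrays was searched for a highest or lowest array that stood apart by Dixon's criterion (the gap to the nearest array as a share of the group's range), and 12 of 126 groups did. Chance flags about 1 in 20 groups of genes not chosen on their values. Most of the named genes were chosen for a large SD, a module or a call made on these same arrays, and genes of a module are not independent of each other, so the count is a description and cannot be read against that rate. NO 4 was the array in 8 of the 12. It was far above the other NO arrays for Defb42 (9.75), Wfdc15b (13.68), Prom2 (12.25), Akr1c19 (11.77), Ptgds (11.94), Cd52 (14.80), Rpl3l (9.20) and Pip5k1b (7.78), where the next NO values were 5.59, 6.79, 8.03, 7.66, 7.47, 10.75, 5.28 and 5.89. All 8 belong to the first module. NO 2 was far below the other NO arrays for both class II chain genes, H2-Eb1 (4.74, next 8.96) and H2-Aa (5.85, next 9.07). NO 5 was far below them for Csrp1 (5.35, next 10.72). IH 18 was far above the other IH arrays for Clec4d (9.38, next 6.79).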

How the results depend on the processing

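Under every setting in which it was computed, the 5 modules kept a mean correlation of at least 0.52, the lowest being that of the first without IH 16 and IH 19. The members were those of the main grouping that a setting's filter kept, and they were not grouped anew. A high value thus follows in part from how the members were chosen. Of the second module 11 of 68 genes were detected on all 16 arrays, and of the fourth 2 of 7, so that setting read few members. The count of genes with an SD of at least 0.5 (1919) fell to 855 with quantile normalization alone or the deposited signal, 896 with the processed values of the authors, 1278 with detection on all 16 arrays and 1151 without IH 16 and IH 19. Of the 100 variable genes 41 were shared with no filter, 20 with detection on all 16 arrays and 64 without IH 16 and IH 19. Genes called by chip were 1 with no filter and 192 without IH 16 and IH 19. Calls of spread wider in IH (4) were 24 with no filter, 2 with detection on all 16 arrays, 1 without IH 16 and IH 19, and 0 with deviations from the group median or the chip mean. Those wider in NO (1) were 2 with quantile normalization, the deposited signal or the mean of probes, 6 with no filter, and 0 with the group median, the chip mean or without IH 16 and IH 19. Leaving out 1 array at a time gave 1296 (without IH 19) to 1977 genes with an SD of at least 0.5, 81 to 98 shared variable genes, 29.9% to 39.0% on the first component, 157 to 170 genes in modules, 0 to 4 and 0 to 1 calls of spread, 0 to 3 calls by chip, and 1222 to 1592 higher and 1029 to 1223 lower in IH. Of the 5 genes called by spread, Bckdhb and Wdr83os were each called in 10 of 27 alternatives, Esyt3 in 13 of 27, Prr18 in 11 of 25 and Hs3st3a1 in 15 of 17. The last 2 passed the filter mainly through IH, so their counts are no sign of stability. Without IH 19 the mean correlation of the adipocyte list was 0.10 (0.46 with it) and that of blood endothelium 0.34 (0.69 with it). The cause of these changes was not tested. No paired analysis was possible because NO and IH fat samples share no replicate number. The number of arrays and the signal over background limit values of genes near background.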
